A study of Dorcoceras hygrometricum with 9 samples.

Results

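NAC, bZIP and homeodomain transcription factors were followed while leaves of Boea hygrometrica dried. The species, listed as Dorcoceras hygrometricum, belongs to the resurrection plants, which recover from almost complete loss of water. A gene was taken as a member when it had at least 30 reads in total over the 9 libraries and the database match deposited with its counts named a NAC, NAM, bZIP, homeobox, homeodomain or HD-ZIP protein. This gave 88 genes of the 24182 with a read, or of the 15677 with at least 30 reads, and they were 38 NAC, 10 bZIP and 40 homeodomain genes. No gene matched words of more than 1 family, and none had to be left out for a mention of abscisic acid in its description. Another 31 genes carried the same words with fewer than 30 reads, 15 of them NAC, 2 bZIP and 14 homeodomain. The members nearest the limit had 34, 36 and 37 reads, and the genes nearest below it had 27, 26 and 26. Gene IDs are printed without the version suffix that they all carry in the deposited files, and a gene is called by the protein it matched best, which is a name and not proof of function. Many plant bZIP proteins are described by other words, such as G-box binding factor or TGA factor, and genes named only so are not among the 10.

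NAC proteins (named after NAM, ATAF and CUC) are specific to plants and share a DNA-binding domain at the N-terminus. In Arabidopsis and petunia some of them set organ boundaries at the meristem, others switch on secondary wall formation, and others drive leaf senescence or the response to drought. bZIP proteins bind DNA as dimers held together by a leucine zipper, and the group that answers abscisic acid is activated when SnRK2 kinases phosphorylate it. Plant homeodomain proteins fall into classes with different work. HD-Zip I proteins act in responses to water supply and light, HD-Zip II in shade avoidance, HD-Zip III in leaf polarity and vascular pattern, HD-Zip IV in the epidermis, and BEL1-like proteins pair with KNOX proteins in meristems, leaves and ovules.

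The states compared were hydrated leaves of potted plants, leaves of plants dried to 70% relative water content (RWC) and leaves dried to 10% RWC, with 3 libraries each. No transgene or mutant was involved, and the sources do not say how many plants went into a library. The 3 libraries of a state are called biological replicates in the series' design text. Libraries held 6.7e+06 to 7.4e+06 uniquely aligned reads. The Rubisco small subunit, a protein of the leaf's carbon fixation, had the most reads of any gene in 3 of 3 hydrated libraries, and averaged 19248 ± 3789, 2209 ± 454 and 232 ± 33.9 CPM (counts per 1000000 counts of the library) in hydrated, 70% RWC and 10% RWC leaves (SD, n = 3). Replicate 1 of each state stood apart from replicates 2 and 3, with a chi-square per gene of 5.01 to 8.60 against them, whereas replicates 2 and 3 of a state differed by 1.27 to 1.39, little more than sampling noise. No label says that replicates 2 and 3 came from separate plants, so p-values measure the spread between these libraries, part of which may be technical. In all 3 states replicate 1 was below both others for 16 of the 79 tested members (10 homeodomain and 6 NAC genes) and above both for 5, among them the bZIP genes BZIP1 and Bhs992_029. CPM are scaled to TMM-adjusted library sizes, so a level is relative to the other reads of its library. They are not divided by gene length unless given per kb. In whole leaves a lower share of cells of 1 type and less RNA per cell of that type cannot be told apart.

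Of the 88 members, 79 passed the filter on low counts and were tested (34 NAC, 9 bZIP and 36 homeodomain genes). The other 9, which had 34 to 72 reads in all and a mean of at most 1.72 CPM in any state, were not tested. They were 4 NAC genes, the bZIP gene matched to tobacco BZI-2, and 4 homeodomain genes. Members ranged from 34 to 39855 reads over the 9 libraries with a median of 899.5. Scaled by coding length, the NAC gene with the highest level was nam-like protein 9 at 363 CPM per kb over all libraries, followed by Bhs574_015 at 92.1 and nam-like protein 7 at 88.8 CPM per kb. BZIP1 led the bZIP genes with 128 CPM per kb. Among the homeodomain genes an ATHB-7-like gene had 143, a HAT5-like gene 128 and BEL1-like protein 1 97.95 CPM per kb. These levels pool unlike states. The ATHB-7-like gene had 4.11, 412 and 13.7 CPM per kb along the series, whereas BEL1-like protein 1 had 133, 113 and 48.5. Bhs574_015 had 31.3, 71.4 and 174 CPM per kb, above nam-like protein 7 (64.4, 120.5 and 81.4) at 10% RWC but in neither other state.

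**Figure D1:**
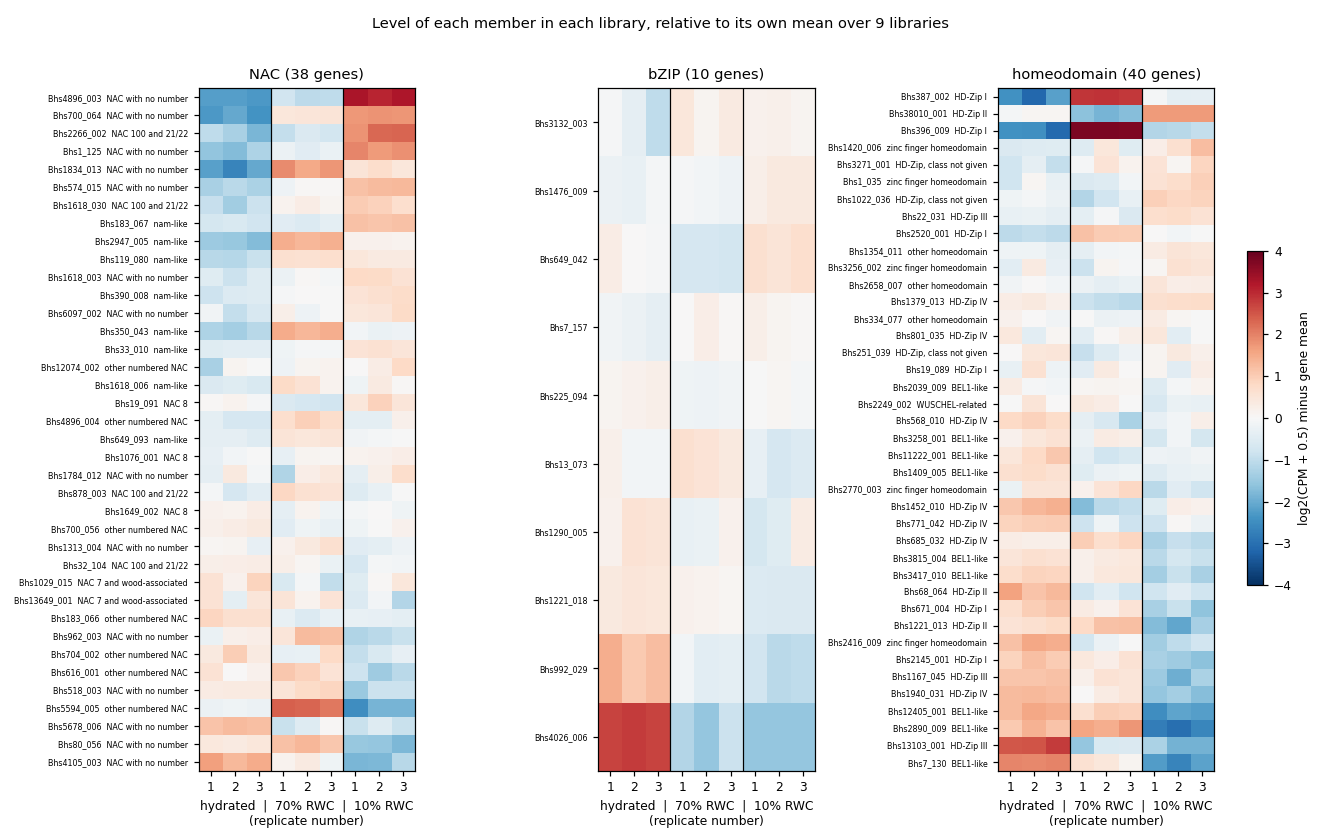
Each row is a member and each column a library, grouped as hydrated, 70% RWC and 10% RWC, and the colour gives log2(CPM + 0.5) minus the gene's mean over the 9 libraries. Rows run within each family by the ratio of the 10% RWC mean to the hydrated mean, and the 2 ATHB-7-like genes of HD-Zip I stand out at 70% RWC.

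Among called members most NAC genes rose at 70% RWC and most homeodomain genes fell. At 70% RWC against hydrated leaves, 21 of the 34 tested NAC genes rose and 7 fell, while 7 of 36 homeodomain genes rose and 20 fell, and 3 of 9 bZIP genes rose and 5 fell (edgeR, adjusted p under 0.05). Of all 14585 tested genes 70.5% were called in this comparison, 34.6% higher and 35.9% lower. The median log2 fold change was 0.78 for NAC, -0.31 for bZIP and -0.41 for homeodomain genes, beside -0.01 over all genes. With a change of at least 2-fold, 14 NAC genes rose and 4 fell, 4 homeodomain genes rose and 10 fell, and 2 bZIP genes fell with none rising, beside 15.1% of all genes higher and 20.5% lower.

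At 10% RWC against hydrated leaves, 18 NAC genes rose and 10 fell, 3 bZIP genes rose and 5 fell, and 11 homeodomain genes rose and 21 fell. The background was 83.9% of all genes called, 42.4% higher and 41.5% lower, and 25.9% higher and 29.7% lower with at least a 2-fold change. By that stricter rule 13 NAC genes rose and 9 fell, and 7 homeodomain genes rose and 19 fell. Median log2 fold changes were 0.39, -0.17 and -1.05 for NAC, bZIP and homeodomain genes, beside 0.01 for all genes. Between 10% and 70% RWC, where 76.8% of all genes were called (37.1% higher, 39.6% lower), 11 NAC genes rose and 15 fell, 3 bZIP genes rose and 3 fell, and 11 homeodomain genes rose and 18 fell. With at least a 2-fold change 7 NAC genes rose and 12 fell, 1 bZIP gene rose and 1 fell, and 6 homeodomain genes rose and 16 fell, beside 18.6% of all genes higher and 25.0% lower. The medians were -0.34, -0.19 and -0.73, beside -0.05 for all genes. With replicates 2 and 3 alone, 22 NAC genes rose and 7 fell, 3 bZIP genes rose and 5 fell, and 8 homeodomain genes rose and 19 fell at 70% RWC against hydrated leaves. At 10% RWC the counts were 19 and 9, 4 and 5, and 13 and 21, and between 10% and 70% RWC 12 and 13, 3 and 3, and 12 and 18. That setting tested 34 NAC, 10 bZIP and 37 homeodomain genes among 14682 genes. Over these 14682 genes 5229 rose and 5353 fell at 70% RWC, and 6274 rose and 6183 fell at 10% RWC, against hydrated leaves. Between 10% and 70% RWC 5513 of them rose and 5850 fell. With replicates 2 and 3 summed to 1 sample per state, 20 NAC genes rose and 7 fell, 3 bZIP genes rose and 5 fell, and 6 homeodomain genes rose and 18 fell at 70% RWC against hydrated leaves. In that setting the counts were 18 and 9, 3 and 4, and 12 and 22 at 10% RWC, and 11 and 15, 2 and 3, and 10 and 17 between 10% and 70% RWC. It tested 36 NAC, 10 bZIP and 38 homeodomain genes among 15206 genes. Of the 15206 genes 4606 rose and 5002 fell at 70% RWC, and 6126 rose and 5977 fell at 10% RWC, against hydrated leaves. Between 10% and 70% RWC 5262 of them rose and 5474 fell. Leaving out the genes with at most 3 reads in each of both groups, the bZIP and homeodomain medians of this last comparison were -0.09 and -0.79.

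**Figure D2:**
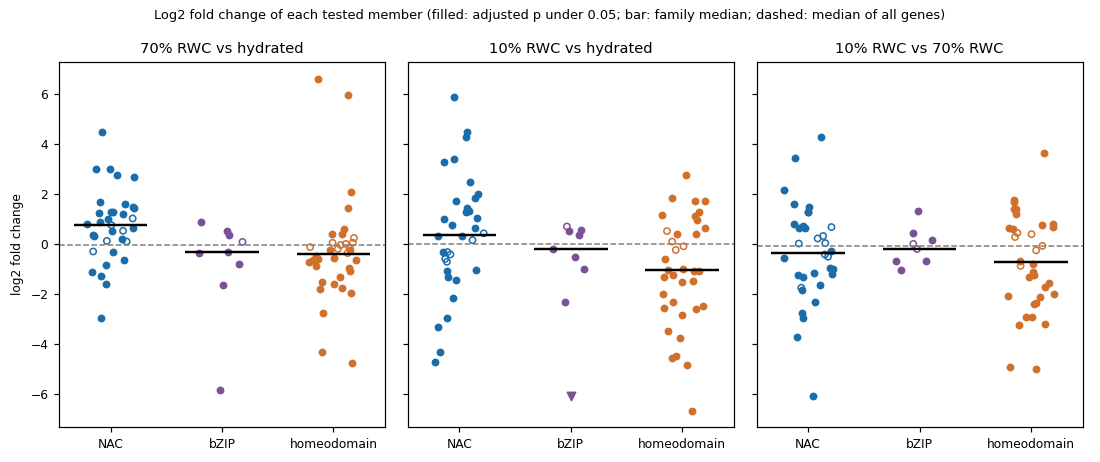
Each point is the log2 fold change of 1 tested member in the comparison named above the panel, filled where the adjusted p is under 0.05, with a bar at the family median and a dashed line at the median of all tested genes. The triangle is a bound for a bZIP gene with 0 reads at 10% RWC, and genes with at most 3 reads in both groups are not drawn; the NAC bar lies above the dashed line in the panels against hydrated leaves and the homeodomain bar below it in all 3.

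The state with the highest mean was counted for each gene. NAC genes peaked at 70% RWC in 15 of 34 cases (44.1%, against 24.0% of all tested genes), at 10% RWC in 12 (35.3%, against 38.5%) and in hydrated leaves in 7 (20.6%, against 37.5%), and 19 of the 34 had their lowest mean in hydrated leaves (55.9%, against 37.3%). Homeodomain genes peaked in hydrated leaves in 17 of 36 cases (47.2%, against 37.5% of all tested genes), at 70% RWC in 9 (25%) and at 10% RWC in 10 (27.8%), and 19 of them were lowest at 10% RWC (52.8%, against 40.1%). The 9 bZIP genes peaked in hydrated, 70% RWC and 10% RWC leaves in 4, 2 and 3 cases.

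As summed CPM, the 38 NAC genes held 1011 ± 10.8 in hydrated leaves, 1724 ± 30.2 at 70% RWC and 2109 ± 20.01 at 10% RWC (SD, n = 3). Nam-like protein 9 made up a large part of that sum, and without it the NAC genes held 577 ± 5.34, 1175 ± 19.1 and 1245 ± 11.6 CPM. The homeodomain sum was 1139 ± 70.4, 1305 ± 43.2 and 664 ± 21.9 CPM, and the bZIP sum 460 ± 20.1, 441 ± 20.7 and 353 ± 11.6 CPM. Within the homeodomain sum HD-Zip I held 98.7, 543 and 119 CPM, whereas BEL1-like genes held 637, 459 and 157 CPM. Every other homeodomain class but the WUSCHEL-related gene (17.1 and 17.8 CPM) had a lower mean at 70% RWC than in hydrated leaves. The libraries of the 3 states did not overlap for the NAC and homeodomain sums. The bZIP sums overlapped between hydrated and 70% RWC leaves and lay below both at 10% RWC.

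**Figure D3:**
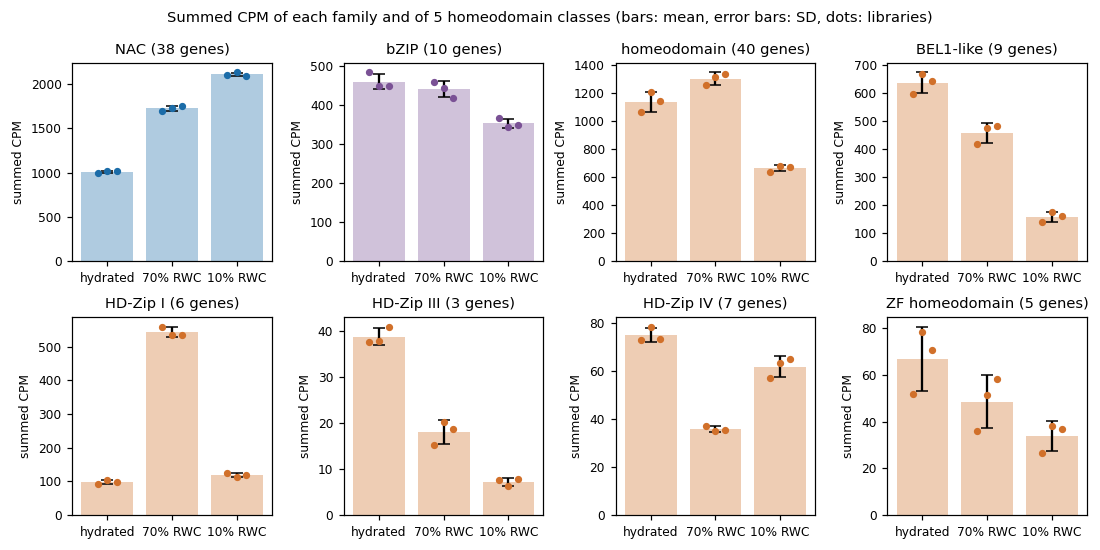
Bars give the mean summed CPM of each family and of 5 homeodomain classes in hydrated, 70% RWC and 10% RWC leaves, error bars the SD and dots the 3 libraries. HD-Zip I reached 543 CPM at 70% RWC, and BEL1-like genes held 637, 459 and 157 CPM along the drying series.

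The 8 nam-like genes, named after petunia relatives of NO APICAL MERISTEM, which sets organ boundaries in that species, all rose. Each was called higher at 70% RWC and at 10% RWC against hydrated leaves, and together they held 725 ± 16.3 CPM in hydrated leaves, 1345 ± 16.1 at 70% RWC and 1525 ± 20.4 at 10% RWC. Between 10% and 70% RWC they parted, with 3 higher, 4 lower and 1 not called. Against hydrated leaves 34.6% of all tested genes were called higher at 70% RWC and 42.4% at 10% RWC. At 10% against 70% RWC 37.1% of all tested genes were higher and 39.6% lower. Nam-like protein 9 (Bhs33_010, scaffold 33, bases 83757 to 86960, minus strand) had 419, 445 and 437 CPM in the hydrated libraries, 525, 571 and 553 CPM at 70% RWC and 864, 892 and 835 CPM at 10% RWC. Its level stepped up at each state with no overlap between libraries. The log2 fold change was 0.34 ± 0.06 (SE, edgeR adjusted p = 6.63e-05) at 70% RWC and 0.99 ± 0.06 (SE, edgeR adjusted p = 4.57e-11) at 10% RWC against hydrated leaves.

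Nam-like protein 4 (Bhs183_067) and nam-like protein 10 (Bhs390_008) also had their highest level at 10% RWC. Nam-like protein 4 had 47.4, 51.1 and 46.03 CPM in the hydrated libraries, 56.5, 53.4 and 59.5 CPM at 70% RWC and 174, 170.4 and 176 CPM at 10% RWC, so most of its rise came after 70% RWC. The log2 fold change of nam-like protein 4 was 0.23 ± 0.07 (SE, edgeR adjusted p = 0.0102) at 70% RWC and 1.85 ± 0.07 (SE, edgeR adjusted p = 5.70e-14) at 10% RWC against hydrated leaves. The call at 70% RWC was lost with library totals alone as the scale (edgeR adjusted p = 0.147), without the filter on low counts (0.159) and in DESeq2 (0.0873), which leaves 7 of 8 nam-like genes called higher there. For nam-like protein 10 the means were 38.9 ± 4.41, 60.04 ± 1.47 and 94.3 ± 6.04 CPM in hydrated, 70% RWC and 10% RWC leaves.

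The 3 genes matched to nam-like protein 1 peaked at 70% RWC instead. Bhs2947_005 (scaffold 2947, bases 32872 to 34724, minus strand) had 22.2, 21.4 and 18.4 CPM in the hydrated libraries, 172, 156 and 168 CPM at 70% RWC and 69.8, 70.4 and 68.6 CPM at 10% RWC. Bhs350_043 had 21.8, 20.01 and 23.7 CPM in the hydrated libraries, 146, 130.3 and 144 CPM at 70% RWC and 47.8, 42.9 and 45.3 CPM at 10% RWC. Both were several times higher at 70% RWC than in hydrated leaves and had come down part of the way at 10% RWC. Their log2 fold changes at 70% RWC against hydrated leaves were 2.99 ± 0.08 (SE, edgeR adjusted p = 1.41e-15) and 2.68 ± 0.09 (SE, edgeR adjusted p = 1.21e-14). At 10% against 70% RWC the log2 fold changes were -1.25 ± 0.07 (SE, edgeR adjusted p = 3.84e-11) and -1.63 ± 0.08 (SE, edgeR adjusted p = 3.95e-12). The other copy, Bhs119_080, averaged 51.04 ± 4.84, 166 ± 3.76 and 138 ± 4.23 CPM along the series and fell by 0.26 on the log2 scale at 10% against 70% RWC.

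Of the genes matched to nam-like protein 7, Bhs649_093 averaged 109 ± 6.88, 203 ± 4.83 and 138 ± 5.94 CPM in hydrated, 70% RWC and 10% RWC leaves. Its log2 fold change at 10% RWC against hydrated leaves was 0.34 ± 0.07 (SE), and 0.22 without replicate 1 of 70% RWC. In that setting 5886 of all genes rose and 6607 fell, against 6177 and 6058 with all libraries. Bhs1618_006, whose gene model is only 183 coding bases long, had 1.66 to 1.84 CPM in hydrated leaves, 3.09 to 5.01 at 70% RWC and 2.40 to 3.65 at 10% RWC. Its call at 10% RWC against hydrated leaves (edgeR adjusted p = 0.0197) was lost without replicate 2 of 10% RWC (adjusted p = 0.0896) or replicate 3 of the hydrated leaves (0.0511), without the filter on low counts (0.0596) and in DESeq2 (0.0836).

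Among the 12 tested NAC genes whose match carries no number, 9 rose and 2 fell at 70% RWC, and 6 rose and 5 fell at 10% RWC against hydrated leaves. The shares of all tested genes were 34.6% higher and 35.9% lower at 70% RWC, and 42.4% and 41.5% at 10% RWC. Bhs1834_013, a gene the authors' files annotate with response to osmotic stress (scaffold 1834, bases 86830 to 88375, plus strand), had 1.15, 0.7096 and 1.32 CPM in the hydrated libraries, 26.99, 20.8 and 24.7 CPM at 70% RWC and 10.3, 11.6 and 9.73 CPM at 10% RWC. It was near the limit of detection in hydrated leaves and highest at 70% RWC, with no overlap between states. The log2 fold change was 4.49 ± 0.21 (SE, edgeR adjusted p = 2.88e-12) at 70% RWC and 3.29 ± 0.24 (SE, edgeR adjusted p = 7.11e-10) at 10% RWC against hydrated leaves, and -1.20 ± 0.14 (SE, edgeR adjusted p = 5.45e-07) at 10% against 70% RWC.

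Other members of this class kept rising to the dry state. Bhs4896_003 (scaffold 4896, bases 31480 to 32525, plus strand) had 1.28, 1.28 and 1.18 CPM in the hydrated libraries, 4.31, 3.51 and 3.53 CPM at 70% RWC and 78.2, 67.9 and 77.1 CPM at 10% RWC. The step came between 70% and 10% RWC, where all 3 dry libraries lay far above the rest. At 10% RWC the log2 fold change was 5.88 ± 0.15 (SE, edgeR adjusted p = 3.21e-16) against hydrated leaves and 4.29 ± 0.12 (SE, edgeR adjusted p = 5.13e-15) against 70% RWC. For Bhs700_064 (scaffold 700, bases 369536 to 372122, minus strand) the values were 1.92, 2.41 and 1.76 CPM in the hydrated libraries, 16.0, 16.2 and 16.5 CPM at 70% RWC and 39.02, 41.1 and 40.4 CPM at 10% RWC. Here the larger step on the log2 scale came by 70% RWC, at a log2 fold change of 2.99 ± 0.16 (SE, edgeR adjusted p = 1.78e-11) against hydrated leaves, and 4.29 ± 0.14 (SE, edgeR adjusted p = 1.13e-14) at 10% RWC. The copies Bhs1_125 and Bhs574_015, whose match is from the grey mangrove Avicennia marina, climbed at each state as well. Bhs1_125 had 7.15, 6.39 and 9.12 CPM in the hydrated libraries, 18.9, 16.2 and 18.4 CPM at 70% RWC and 87.8, 73.9 and 79.8 CPM at 10% RWC, and Bhs574_015 had 26.6, 30.8 and 26.8 CPM in the hydrated libraries, 57.2, 68.1 and 66.9 CPM at 70% RWC and 149, 158 and 159.8 CPM at 10% RWC. At 10% RWC their log2 fold changes against hydrated leaves were 3.42 ± 0.12 (SE, edgeR adjusted p = 3.24e-14) and 2.47 ± 0.09 (SE, edgeR adjusted p = 2.03e-14).

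Some NAC genes of this class were highest at 70% RWC and lowest in the dry leaf. Bhs80_056 had 15.7, 14.9 and 16.03 CPM in the hydrated libraries, 26.3, 29.6 and 25.04 CPM at 70% RWC and 3.73, 3.65 and 2.97 CPM at 10% RWC. Against hydrated leaves the log2 fold change was 0.79 ± 0.11 (SE, edgeR adjusted p = 7.98e-06) at 70% RWC and -2.17 ± 0.16 (SE, edgeR adjusted p = 5.71e-10) at 10% RWC. Bhs962_003 followed the same order with means of 5.31 ± 1.07, 10.7 ± 3.004 and 2.13 ± 0.285 CPM along the series. Bhs518_003 averaged 28.3 ± 0.302, 36.9 ± 4.46 and 10.5 ± 2.53 CPM, and its rise at 70% RWC (edgeR adjusted p = 0.0126) was lost without replicate 3 of 70% RWC (adjusted p = 0.0621) and with library totals alone as the scale (0.0541). That call was also lost with replicates 2 and 3 summed (edgeR adjusted p = 0.1098). Bhs4105_003 fell throughout, with 6.51, 4.97 and 5.74 CPM in the hydrated libraries, 1.95, 2.34 and 1.47 CPM at 70% RWC and 0.133, 0.1402 and 0.5403 CPM at 10% RWC, and its log2 fold change was -4.32 ± 0.39 (SE, edgeR adjusted p = 1.07e-08) at 10% RWC against hydrated leaves, or -5.22 without replicate 3 of 10% RWC.

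NAC genes named after numbered relatives showed several patterns. The NAC 90-like gene Bhs5594_005 (scaffold 5594, bases 60016 to 67614, plus strand), whose Arabidopsis namesake holds back leaf senescence in young leaves, had 1.92, 1.99 and 1.91 CPM in the hydrated libraries, 14.3, 13.6 and 11.6 CPM at 70% RWC and 0, 0.2805 and 0.2702 CPM at 10% RWC. It was high at 70% RWC and nearly without reads at 10% RWC. The log2 fold change was 2.76 ± 0.22 (SE, edgeR adjusted p = 3.19e-09) at 70% RWC and -3.30 ± 0.51 (SE, edgeR adjusted p = 1.23e-05) at 10% RWC against hydrated leaves, and -6.05 ± 0.34 (SE, edgeR adjusted p = 2.94e-11) between 10% and 70% RWC.

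Both NAC 100-like genes were highest at 10% RWC. In Arabidopsis NAC100 is among the NAC genes cut by the microRNA miR164, as are CUC1 and CUC2. Bhs2266_002, which the authors' files also annotate with response to osmotic stress, had 0.639, 0.426 and 0.147 CPM in the hydrated libraries, 0.696, 1.02 and 0.884 CPM at 70% RWC and 7.46, 10.7 and 11.1 CPM at 10% RWC. Its log2 fold change was 4.49 ± 0.33 (SE, edgeR adjusted p = 7.93e-10) at 10% RWC against hydrated leaves. At 70% RWC it was 1.03 ± 0.56 (SE, edgeR adjusted p = 0.112), which did not pass the threshold, and with replicates 2 and 3 alone the adjusted p was 0.0376. Bhs1618_030 averaged 4.099 ± 0.854, 10.2 ± 0.821 and 16.8 ± 2.09 CPM along the series and rose in both comparisons with hydrated leaves (log2 fold change 1.31 ± 0.19 and 2.03 ± 0.17, SE).

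The NAC 78-like gene Bhs183_066, whose Arabidopsis namesake acts in the flavonoid response to high light, fell early and stayed low. It had 75.9, 64.9 and 65.0 CPM in the hydrated libraries, 34.1, 28.4 and 33.4 CPM at 70% RWC and 34.1, 33.4 and 31.5 CPM at 10% RWC, and its log2 fold change was -1.10 ± 0.09 (SE, edgeR adjusted p = 1.03e-08) at 70% RWC and -1.06 ± 0.09 (SE, edgeR adjusted p = 9.02e-09) at 10% RWC against hydrated leaves. NAC35 (Bhs700_056) averaged 9.49 ± 0.668, 6.07 ± 0.654 and 7.63 ± 0.995 CPM, lower at 70% RWC (edgeR adjusted p = 0.00233), and it was not called at 10% RWC against hydrated leaves (0.0768). The decrease at 10% RWC was called with RLE scaling (edgeR adjusted p = 0.0287), without the filter on low counts (0.0444), without replicate 1 of 70% RWC (0.0203) and without replicate 3 of 10% RWC (0.0482).

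The genes matched to NAC domain protein 8, the number of the Arabidopsis DNA damage regulator SOG1, mostly moved little. Bhs1649_002 averaged 37.5 ± 2.39, 30.1 ± 5.49 and 30.6 ± 1.96 CPM in hydrated, 70% RWC and 10% RWC leaves. Its decreases at 70% RWC (edgeR adjusted p = 0.0204) and at 10% RWC (0.0261) were each lost without single libraries, at 0.12 without replicate 1 of 70% RWC and at 0.102 without replicate 3 of 10% RWC, among others. Bhs1076_001 had 18.8 to 23.2 CPM in hydrated leaves, 18.6 to 25.5 at 70% RWC and 25.8 to 28.2 at 10% RWC. Bhs19_091, at lower counts, averaged 3.46 ± 0.227, 1.92 ± 0.1602 and 5.46 ± 1.099 CPM and was lowest at 70% RWC.

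The 2 genes matched to NAC domain protein 7, whose Arabidopsis namesake VND4 switches on vessel formation, were low in all states, with 0.946 to 5.59 CPM. The matches to NAC domain protein 21/22, a number that stands for the auxin-responsive NAC1 in Arabidopsis, had 0.426 to 2.09 CPM.

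**Figure D4:**
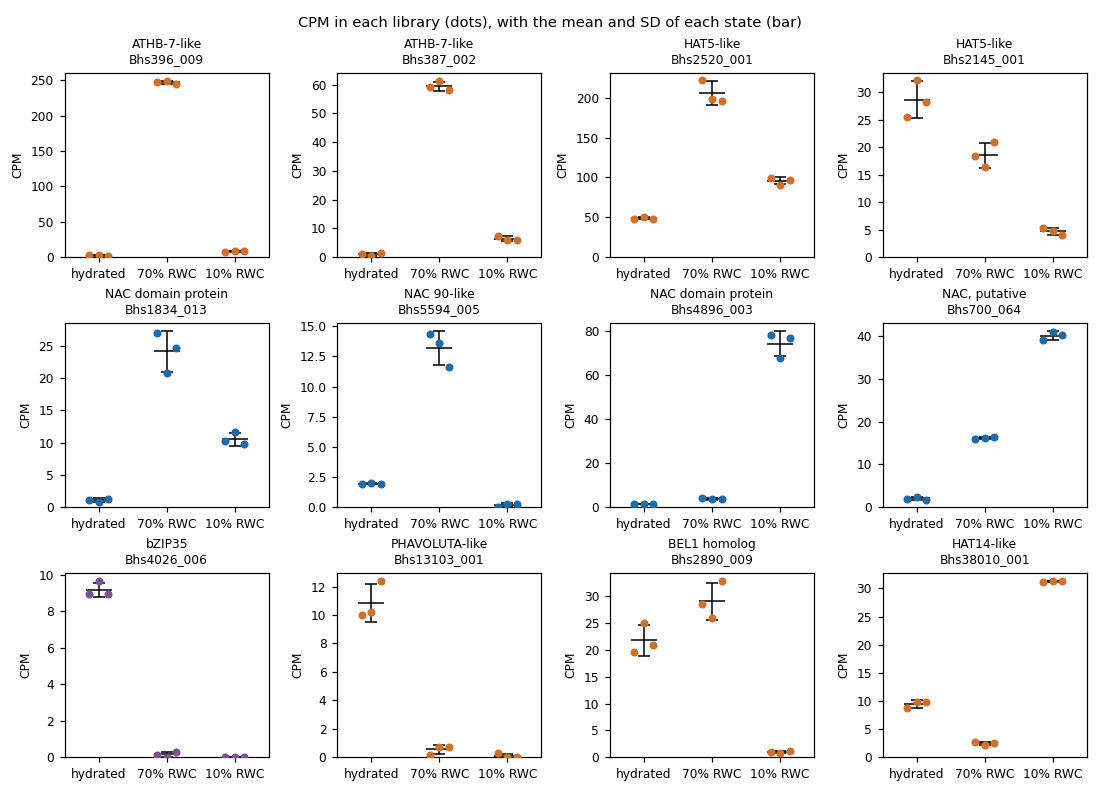
Each panel gives the CPM of 1 gene in the 3 libraries of hydrated, 70% RWC and 10% RWC leaves as dots, with the mean and SD of each state as a bar. The ATHB-7-like gene Bhs396_009 reaches 245 to 249 CPM at 70% RWC and 7.72 to 8.92 CPM at 10% RWC, whereas the NAC gene Bhs4896_003 stays at 3.51 to 4.31 CPM at 70% RWC and reaches 67.9 to 78.2 CPM at 10% RWC.

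Against hydrated leaves the bZIP genes changed by smaller amounts, apart from 2 that fell. The gene matched to soybean bZIP35, Bhs4026_006 (scaffold 4026, bases 37044 to 37610, minus strand), had 8.94, 9.65 and 8.97 CPM in the hydrated libraries, 0.139, 0 and 0.295 CPM at 70% RWC and 0, 0 and 0 CPM at 10% RWC. It was close to gone already at 70% RWC, with 3 reads over the 3 libraries against 199 in hydrated leaves, a read ratio of 0.0157 (95% interval 0.00321 to 0.0466, counting error only). At 10% RWC no read was found, which against the floor of 3 reads over the group makes it at least 67.5-fold lower than in hydrated leaves (edgeR adjusted p = 4.45e-10). Bhs992_029, matched to a snapdragon bZIP protein, had 29.8, 22.3 and 25.4 CPM in the hydrated libraries, 9.598, 7.76 and 7.95 CPM at 70% RWC and 5.99, 4.77 and 4.998 CPM at 10% RWC. Its log2 fold change was -1.61 ± 0.15 (SE, edgeR adjusted p = 2.28e-08) at 70% RWC and -2.29 ± 0.16 (SE, edgeR adjusted p = 2.63e-10) at 10% RWC against hydrated leaves.

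BZIP1 (Bhs13_073, scaffold 13, bases 627047 to 628637, minus strand) was the most abundant bZIP member per coding length. It had 152, 122 and 122 CPM in the hydrated libraries, 205, 193 and 174 CPM at 70% RWC and 104, 83.4 and 89.96 CPM at 10% RWC. Its level was highest at 70% RWC and lowest at 10% RWC with no overlap, and its log2 fold change was 0.53 ± 0.10 (SE, edgeR adjusted p = 0.000188) at 70% RWC and -0.52 ± 0.10 (SE, edgeR adjusted p = 0.000214) at 10% RWC against hydrated leaves. The ripening-related bZIP gene Bhs649_042, the bZIP member annotated with response to osmotic stress, had the opposite order. It had 48.02, 39.6 and 37.8 CPM in the hydrated libraries, 24.3, 24.4 and 23.3 CPM at 70% RWC and 61.5, 56.2 and 62.5 CPM at 10% RWC, with a log2 fold change of -0.80 ± 0.10 (SE, edgeR adjusted p = 1.92e-06) at 70% RWC and 0.52 ± 0.09 (SE, edgeR adjusted p = 5.82e-05) at 10% RWC against hydrated leaves. The late step was larger for both genes. At 10% against 70% RWC Bhs649_042 rose (log2 fold change 1.32) and BZIP1 fell, each by at least 2-fold.

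Bhs1221_018, a bZIP gene matched to apple, averaged 125 ± 3.92, 101 ± 3.56 and 62.8 ± 0.987 CPM along the series and fell at each step. Bhs1476_009 averaged 19.97 ± 1.73, 21.3 ± 1.33 and 29.4 ± 1.92 CPM and was called higher at 10% RWC but not at 70% RWC against hydrated leaves (edgeR adjusted p = 0.000102 and 0.466). Bhs7_157 averaged 20.6 ± 1.77, 26.7 ± 2.64 and 26.9 ± 1.57 CPM, higher in both dried states. Bhs225_094 averaged 82.5 ± 3.64, 65.2 ± 1.68 and 73.1 ± 4.71 CPM. Its decrease at 10% RWC against hydrated leaves (edgeR adjusted p = 0.0332) was lost without replicate 1 (0.0758) or 3 (0.166) of 10% RWC and without replicate 2 (0.0707) or 3 (0.108) of the hydrated leaves. With replicates 2 and 3 summed that decrease was not called either (edgeR adjusted p = 0.1535). Its increase at 10% against 70% RWC (log2 fold change 0.17) was lost with RLE scaling (edgeR adjusted p = 0.107), in DESeq2 (adjusted p = 0.189) and in other settings. Without replicate 1 of 70% RWC that log2 fold change was 0.05. For the weakly expressed Bhs3132_003, the increase at 70% RWC against hydrated leaves was lost in DESeq2 (adjusted p = 0.0728) and without either of 2 single libraries.

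HD-Zip I held the largest changes of the homeodomain family at 70% RWC. The 6 genes together had 98.7 ± 6.61 CPM in hydrated leaves, 543 ± 14.2 at 70% RWC and 119 ± 4.99 at 10% RWC. Of the 5 tested, 3 rose and 2 fell at 70% RWC and at 10% RWC against hydrated leaves, and all 5 were lower at 10% than at 70% RWC. The shares of all tested genes were 34.6% higher and 35.9% lower at 70% RWC, and 42.4% and 41.5% at 10% RWC. At 10% against 70% RWC 39.6% of all tested genes were lower. ATHB-7, the namesake of 2 of them, is induced in Arabidopsis by water deficit and abscisic acid. The ATHB-7-like gene Bhs396_009 (scaffold 396, bases 58294 to 59008, minus strand) had 2.94, 2.84 and 1.62 CPM in the hydrated libraries, 248, 249 and 245 CPM at 70% RWC and 7.72, 7.99 and 8.92 CPM at 10% RWC. Nearly all of its signal came from 70% RWC, and the dry libraries lay between the other states. The log2 fold change was 6.62 ± 0.12 (SE, edgeR adjusted p = 5.79e-18) at 70% RWC and 1.72 ± 0.18 (SE, edgeR adjusted p = 7.44e-08) at 10% RWC against hydrated leaves, and -4.91 ± 0.10 (SE, edgeR adjusted p = 6.90e-17) at 10% against 70% RWC. As a fold, that was 98.6-fold higher at 70% RWC than in hydrated leaves and 30.04-fold lower at 10% RWC than at 70% RWC.

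The other ATHB-7-like gene, Bhs387_002 (scaffold 387, bases 6611 to 7336, minus strand), is annotated in the authors' files with response to osmotic stress. It had 1.02, 0.426 and 1.32 CPM in the hydrated libraries, 59.1, 61.2 and 58.2 CPM at 70% RWC and 7.32, 5.75 and 5.94 CPM at 10% RWC. The pattern was that of Bhs396_009 at a lower level, and per coding length its 70% RWC mean was 96.3 CPM per kb against 412 CPM per kb for Bhs396_009. The log2 fold change of Bhs387_002 was 5.98 ± 0.19 (SE, edgeR adjusted p = 7.87e-15) at 70% RWC and 2.76 ± 0.27 (SE, edgeR adjusted p = 2.94e-08) at 10% RWC against hydrated leaves, and -3.23 ± 0.13 (SE, edgeR adjusted p = 4.14e-13) between 10% and 70% RWC.

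HAT5 is the Arabidopsis HD-Zip I protein also called ATHB-1, which acts in leaf development. Of the HAT5-like genes, Bhs2520_001 (scaffold 2520, bases 13864 to 15547, plus strand) had 47.9, 50.7 and 47.6 CPM in the hydrated libraries, 223, 198 and 196 CPM at 70% RWC and 99.5, 90.6 and 96.7 CPM at 10% RWC. It was raised in both dried states and highest at 70% RWC, with a log2 fold change of 2.08 ± 0.07 (SE, edgeR adjusted p = 4.30e-14) at 70% RWC and 0.97 ± 0.07 (SE, edgeR adjusted p = 1.23e-09) at 10% RWC against hydrated leaves. The copy Bhs2145_001 went the other way, with 25.5, 32.2 and 28.2 CPM in the hydrated libraries, 18.4, 16.4 and 20.9 CPM at 70% RWC and 5.33, 4.77 and 4.05 CPM at 10% RWC. Against hydrated leaves the log2 fold change was -0.63 ± 0.13 (SE, edgeR adjusted p = 0.00026) at 70% RWC and -2.60 ± 0.15 (SE, edgeR adjusted p = 3.67e-11) at 10% RWC. The ATHB-13-like gene Bhs671_004 averaged 17.3 ± 2.702, 11.3 ± 1.52 and 3.46 ± 0.967 CPM and also fell in both dried states.

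HD-Zip II genes did not move together. HAT14-like Bhs38010_001 (scaffold 38010, bases 1073 to 2165, plus strand) had 8.68, 9.79 and 9.85 CPM in the hydrated libraries, 2.64, 2.195 and 2.504 CPM at 70% RWC and 31.2, 31.3 and 31.3 CPM at 10% RWC. It dipped at 70% RWC and was above the hydrated libraries at 10% RWC, with a log2 fold change of -1.94 ± 0.17 (SE, edgeR adjusted p = 2.09e-08) at 70% RWC and 1.73 ± 0.12 (SE, edgeR adjusted p = 1.71e-10) at 10% RWC against hydrated leaves. The HAT4-like gene Bhs1221_013, named after the Arabidopsis shade avoidance regulator also called ATHB-2, averaged 19.5 ± 1.397, 26.1 ± 4.08 and 3.48 ± 1.04 CPM. It fell by 2.48 on the log2 scale at 10% RWC against hydrated leaves (edgeR adjusted p = 1.39e-09). Its small rise at 70% RWC (edgeR adjusted p = 0.0135) was lost without replicate 2 (0.0594) or replicate 3 (0.0616) of 70% RWC. That call was also lost with replicates 2 and 3 summed (edgeR adjusted p = 0.055) and in DESeq2 (adjusted p = 0.051). The second HAT14-like gene, Bhs68_064, had 38 reads in hydrated leaves and 1 read in each of the dried states.

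HD-Zip III genes set the upper side of the leaf and pattern its veins in Arabidopsis, where miR166 cuts their transcripts. Their sum was 38.9 ± 1.88 CPM in hydrated leaves, 18.1 ± 2.65 at 70% RWC and 7.29 ± 0.85 at 10% RWC. The PHAVOLUTA-like gene Bhs13103_001 (scaffold 13103, bases 1839 to 6805, minus strand) had 9.96, 10.2 and 12.4 CPM in the hydrated libraries, 0.139, 0.732 and 0.736 CPM at 70% RWC and 0.266, 0 and 0 CPM at 10% RWC. It had fallen by 70% RWC, with a log2 fold change of -4.31 ± 0.34 (SE, edgeR adjusted p = 3.73e-09) against hydrated leaves, and at 10% RWC 2 reads, both in replicate 1, stood against 234 in hydrated leaves, a read ratio of 0.0084 (95% interval 0.00101 to 0.0307, edgeR adjusted p = 3.12e-10). Between 10% and 70% RWC the counts were 2 and 11 reads (ratio 0.172, 95% interval 0.0185 to 0.786). The call there (edgeR adjusted p = 0.0307) was lost when replicate 2 or 3 of either of the dried states was left out (0.0953 to 0.1). It was also lost with replicates 2 and 3 summed (edgeR adjusted p = 0.0719).

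Of the ATHB-15-like genes, named after a protein that acts in Arabidopsis vascular tissue and meristems, Bhs1167_045 had 26.2, 26.1 and 27.2 CPM in the hydrated libraries, 13.6, 17.7 and 16.8 CPM at 70% RWC and 3.99, 2.66 and 4.59 CPM at 10% RWC. It fell in both dried states, with a log2 fold change of -0.72 ± 0.13 (SE, edgeR adjusted p = 0.000102) at 70% RWC and -2.81 ± 0.17 (SE, edgeR adjusted p = 3.40e-11) at 10% RWC against hydrated leaves. The copy Bhs22_031 had 1.53, 1.56 and 1.47 CPM in the hydrated libraries, 1.39, 1.903 and 1.18 CPM at 70% RWC and 3.46, 3.65 and 3.24 CPM at 10% RWC. It rose at 10% RWC, with a log2 fold change of 1.17 ± 0.26 (SE, edgeR adjusted p = 0.000508) against hydrated leaves.

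HD-Zip IV genes, which act in epidermal cells, had a sum of 74.9 ± 3.0 CPM in hydrated leaves, 35.8 ± 1.11 at 70% RWC and 61.7 ± 4.2 at 10% RWC. Of the 5 tested, 4 fell and 1 rose in each comparison with hydrated leaves. Beside these, 35.9% of all tested genes fell and 34.6% rose at 70% RWC, and 41.5% fell and 42.4% rose at 10% RWC. ROC3 (Bhs1379_013), named after a rice gene of the outermost cell layer, had 36.5, 39.5 and 34.4 CPM in the hydrated libraries, 16.3, 14.8 and 13.8 CPM at 70% RWC and 46.7, 48.7 and 50.7 CPM at 10% RWC. It made up much of the sum, was lowest at 70% RWC and highest at 10% RWC, and its log2 fold change was -1.30 ± 0.10 (SE, edgeR adjusted p = 3.32e-09) at 70% RWC and 0.40 ± 0.09 (SE, edgeR adjusted p = 0.00043) at 10% RWC against hydrated leaves.

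Both tested genes matched to PROTODERMAL FACTOR 2, which keeps epidermal identity in Arabidopsis, fell. Bhs1452_010 averaged 14.9 ± 1.85, 2.23 ± 0.739 and 5.92 ± 1.69 CPM along the series and Bhs568_010 5.304 ± 0.343, 1.53 ± 0.606 and 2.68 ± 0.637 CPM. Both were lowest at 70% RWC, and the higher level of Bhs568_010 at 10% than at 70% RWC (edgeR adjusted p = 0.031) was lost without replicate 3 of 10% RWC (0.144) or replicate 2 (0.0577) or 3 (0.154) of 70% RWC. That call was also lost with replicates 2 and 3 summed (edgeR adjusted p = 0.0637) and in DESeq2 (adjusted p = 0.0725). The HDG11-like gene Bhs1940_031, whose Arabidopsis namesake limits trichome branching, averaged 7.75 ± 0.227, 3.67 ± 0.686 and 0.683 ± 0.151 CPM and fell by 3.48 on the log2 scale at 10% RWC against hydrated leaves. ANTHOCYANINLESS 2 (Bhs685_032), needed for anthocyanin in Arabidopsis leaf cells under the epidermis, had 8.56, 8.23 and 8.24 CPM in the hydrated libraries, 14.05, 11.3 and 12.96 CPM at 70% RWC and 2.53, 3.37 and 2.97 CPM at 10% RWC. It rose at 70% RWC and fell at 10% RWC against hydrated leaves, by log2 fold changes of 0.61 ± 0.15 (SE, edgeR adjusted p = 0.00133) and -1.50 ± 0.19 (SE, edgeR adjusted p = 9.55e-07).

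Most BEL1-like genes fell as the leaf dried. Of 9 tested, 6 fell and 1 rose at 70% RWC, and 8 fell and none rose at 10% RWC against hydrated leaves. Between 10% and 70% RWC 5 fell and none rose. Over all tested genes 35.9% fell at 70% RWC and 41.5% at 10% RWC against hydrated leaves, and 39.6% between 10% and 70% RWC. Their sum was 637 ± 37.2 CPM in hydrated leaves, 459 ± 35.4 at 70% RWC and 157 ± 18.2 at 10% RWC. Among genes with the homeodomain family words, KNOX genes, whose proteins are the partners of BEL1-like proteins, appeared as 3 knotted-1-like matches. All of them had under 30 reads and so were outside the members. KNOX genes described without those words were not searched for, so the level of KNOX transcripts is not given by these genes. BEL1-like protein 1 (Bhs3815_004, scaffold 3815, bases 57046 to 59353, minus strand) had 236, 263 and 252 CPM in the hydrated libraries, 193, 217 and 227 CPM at 70% RWC and 80.2, 103 and 91.04 CPM at 10% RWC. Most of its fall came after 70% RWC, and its log2 fold change was -1.46 ± 0.09 (SE, edgeR adjusted p = 5.63e-11) at 10% RWC against hydrated leaves. At 70% RWC it was -0.24 ± 0.08 (SE, edgeR adjusted p = 0.0171), and that call was lost without replicate 1 of 70% RWC (adjusted p = 0.0768) or replicate 2 of the hydrated leaves (0.0747).

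BEL1-like proteins 2 and 4 restrain growth at the leaf margin in Arabidopsis, where they are called SAWTOOTH proteins. The gene matched to BEL1-like protein 2, Bhs7_130 (scaffold 7, bases 773472 to 778663, plus strand), had 72.9, 70.4 and 74.7 CPM in the hydrated libraries, 28.1, 25.03 and 19.9 CPM at 70% RWC and 3.46, 2.52 and 3.78 CPM at 10% RWC. Its states did not overlap, and the log2 fold change was -1.57 ± 0.11 (SE, edgeR adjusted p = 6.28e-10) at 70% RWC and -4.47 ± 0.15 (SE, edgeR adjusted p = 1.27e-14) at 10% RWC against hydrated leaves. For BEL1-like protein 4 the copy Bhs12405_001 had 140.4, 172 and 159 CPM in the hydrated libraries, 90.8, 116 and 111 CPM at 70% RWC and 9.99, 13.04 and 12.2 CPM at 10% RWC. It fell by 3.74 on the log2 scale at 10% RWC against hydrated leaves (edgeR adjusted p = 7.07e-14). The copy Bhs3417_010 averaged 73.4 ± 4.64, 53.4 ± 5.25 and 18.3 ± 3.398 CPM, and the copy Bhs2039_009, at 3.46 to 6.51 CPM in all libraries, passed the threshold in none of the 3 comparisons.

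The genes matched to BEL1, which shapes the ovule's integument in Arabidopsis, parted at 70% RWC. Bhs2890_009 (scaffold 2890, bases 86185 to 88988, plus strand) had 19.5, 24.98 and 20.9 CPM in the hydrated libraries, 28.5, 26.1 and 32.8 CPM at 70% RWC and 0.932, 0.701 and 1.08 CPM at 10% RWC. It was the BEL1-like gene that rose at 70% RWC, with a log2 fold change of 0.42 ± 0.12 (SE, edgeR adjusted p = 0.00564) against hydrated leaves, before it stood at -4.56 ± 0.22 (SE, edgeR adjusted p = 1.94e-12) at 10% RWC. Bhs1409_005 averaged 46.8 ± 2.105, 24.1 ± 2.84 and 22.98 ± 2.298 CPM, so that most of its fall came by 70% RWC. A further decrease at 10% against 70% RWC was called, among the alternatives run, only without replicate 1 of 70% RWC (log2 fold change -0.28, edgeR adjusted p = 0.0395). Of the BEL1-like genes, Bhs3815_004, Bhs12405_001, Bhs3417_010 and Bhs3258_001 were lower in replicate 1 than in replicates 2 and 3 in every state. The part of that difference in the results was not tested, and with replicates 2 and 3 alone the BEL1-like counts were the same in all 3 comparisons. With replicates 2 and 3 summed, 5 BEL1-like genes fell at 70% RWC against hydrated leaves, since BEL1-like protein 1 was no longer called there (edgeR adjusted p = 0.0821).

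Zinc finger homeodomain genes were variable between libraries, and 4 of the 4 tested were lowest in replicate 1 of every state. Bhs2416_009 had 27.2, 35.5 and 33.1 CPM in the hydrated libraries, 6.82, 9.81 and 11.5 CPM at 70% RWC and 4.13, 5.47 and 6.62 CPM at 10% RWC. The hydrated libraries lay above all others, and the log2 fold change was -1.77 ± 0.17 (SE, edgeR adjusted p = 7.54e-08) at 70% RWC and -2.56 ± 0.19 (SE, edgeR adjusted p = 9.64e-10) at 10% RWC against them. Bhs2770_003 averaged 25.5 ± 7.14, 30.2 ± 6.59 and 12.03 ± 2.798 CPM and was called lower at 10% RWC but not at 70% RWC against hydrated leaves. At 70% RWC its libraries had 23.5, 30.4 and 36.7 CPM, against 17.2, 29.8 and 29.4 CPM in hydrated leaves, and with the replicate number as a block that increase was called (log2 fold change 0.25, edgeR adjusted p = 0.0215). With replicates 2 and 3 alone Bhs3256_002 was called higher at 10% RWC against hydrated leaves (edgeR adjusted p = 0.0076), against 0.0739 with all libraries. The weakly expressed Bhs1_035 was called higher at 10% RWC (log2 fold change 1.28 ± 0.29, SE).

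Homeodomain genes of other kinds went both ways in the dry leaf. LUMINIDEPENDENS (Bhs1354_011), a flowering time gene in Arabidopsis, averaged 61.5 ± 4.14, 64.2 ± 6.25 and 97.7 ± 6.33 CPM. Its log2 fold change was 0.67 ± 0.08 (SE, edgeR adjusted p = 9.89e-07) at 10% RWC against hydrated leaves and 0.06 ± 0.09 (SE, edgeR adjusted p = 0.559) at 70% RWC. The WUSCHEL-related gene WOX8 (Bhs2249_002), whose Arabidopsis namesake acts in the early embryo, averaged 17.1 ± 3.85, 17.8 ± 2.603 and 11.2 ± 1.54 CPM and was called lower at 10% RWC (edgeR adjusted p = 0.00329). The pathogenesis-related homeodomain gene Bhs334_077 averaged 18.4 ± 2.12, 16.3 ± 1.34 and 19.9 ± 2.699 CPM and passed the threshold in none of the comparisons, though it was called higher at 10% than at 70% RWC with library totals alone as the scale (edgeR adjusted p = 0.0236), with the replicate block (0.0172), without replicate 3 of 10% RWC (0.0314) and without replicate 1 of the hydrated leaves (0.0446). The pepper-matched homeodomain leucine-zipper 1 gene Bhs1022_036 averaged 3.597 ± 0.225, 2.32 ± 0.862 and 7.93 ± 0.343 CPM and rose at 10% RWC (edgeR adjusted p = 6.11e-05). Its lower level at 70% RWC (0.0385) was lost without any 1 of 5 libraries, at 0.0537 to 0.196. The call was also lost with replicates 2 and 3 alone (edgeR adjusted p = 0.261) or summed (0.065), and in DESeq2 (adjusted p = 0.0583).

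Members that share a database match were compared as copies. Best matches shared by at least 2 members numbered 15 and held 34 of the 88 genes, and 13 of them had at least 2 tested members, giving 19 pairs of tested copies. At 70% RWC against hydrated leaves 10 pairs were called in the same direction and 2 in opposite directions. At 10% RWC these were 14 and 2, and between 10% and 70% RWC 11 and 1. The log2 ratio of 1 copy to the other, from log2(CPM + 0.5), did not overlap between the libraries of 70% RWC and hydrated leaves in 13 of 19 pairs. It did not overlap between 10% RWC and hydrated leaves in 15 pairs, or between 10% and 70% RWC in 17. The same shares were not computed for other pairs of genes, and most genes of the whole table were called in each comparison, so nothing particular to copies is read from these counts. An exact two-sided permutation test of 3 against 3 libraries cannot give less than p = 0.1, so these ratios are given as descriptions.

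**Figure D5:**
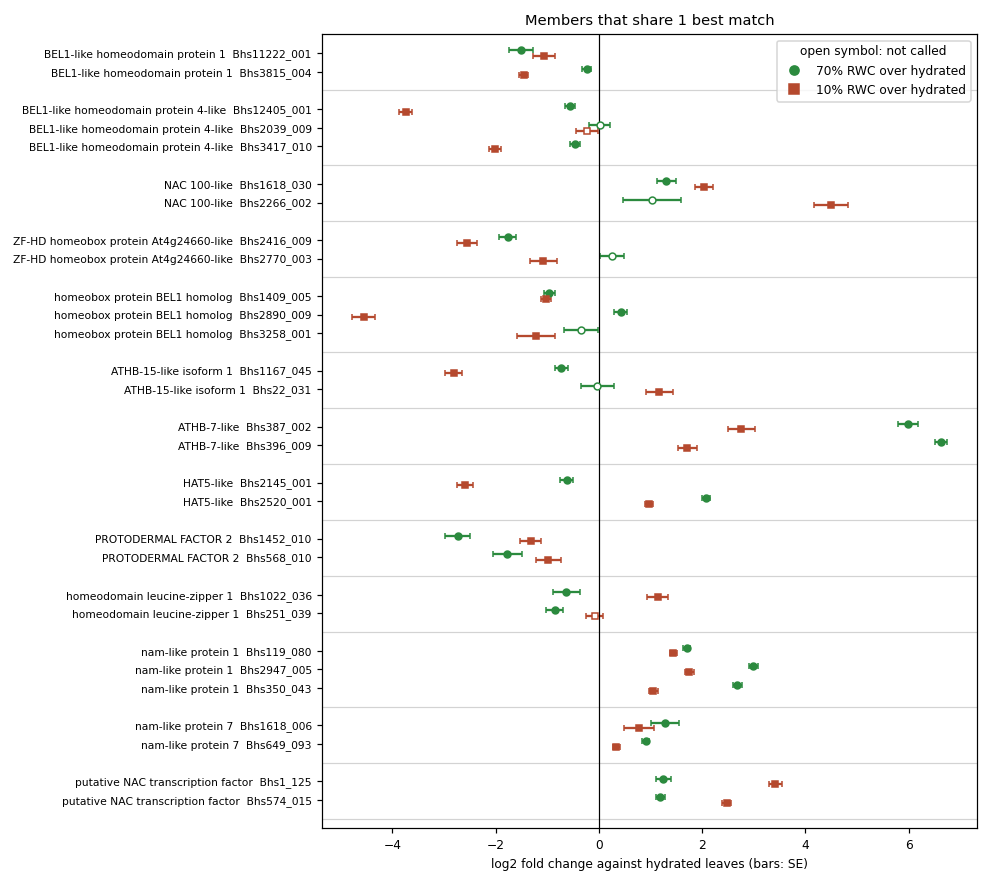
Log2 fold changes against hydrated leaves, with SE bars, are drawn for tested members that share 1 best match, circles for 70% RWC and squares for 10% RWC, open where the gene was not called. HAT5-like copies lie on opposite sides of 0 in both dried states, whereas the ATHB-7-like and nam-like protein 1 copies lie on the same side.

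For the HAT5-like genes the log2 ratio of Bhs2520_001 to Bhs2145_001 was 0.76 ± 0.13 in hydrated leaves, 3.44 ± 0.21 at 70% RWC and 4.21 ± 0.18 at 10% RWC (SD, n = 3). The ATHB-15-like ratio of Bhs1167_045 to Bhs22_031 ran the other way, at 3.74 ± 0.07, 3.06 ± 0.26 and 0.08 ± 0.43. For the BEL1 homologs the log2 ratio of Bhs1409_005 to Bhs2890_009 was 1.09 ± 0.13, -0.27 ± 0.2 and 4.07 ± 0.25, so the ratio changed sign at 70% RWC and was positive again at 10% RWC. Within the copies of nam-like protein 1 the log2 ratio of Bhs119_080 to Bhs2947_005 was 1.28 ± 0.27 in hydrated leaves, 0.01 ± 0.06 at 70% RWC and 0.99 ± 0.05 at 10% RWC, so it was smallest at 70% RWC. Only uniquely aligned reads were counted, so reads shared by near-identical copies are missing from these values.

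Members lay on 78 scaffolds. Nam-like protein 4 and the NAC 78-like gene are neighbours on scaffold 183, both on the minus strand with 1515 bases and no gene model between them. The first rose and the second fell in both dried states, as described above with their values. The rise of nam-like protein 4 at 70% RWC was small, and its call was lost in some alternatives. On scaffold 4896 the late-rising Bhs4896_003 lies 4379 bases from Bhs4896_004, matched to potato NAC2, with no gene between them. Bhs4896_004 averaged 3.53 ± 0.484, 9.67 ± 1.14 and 4.803 ± 1.34 CPM along the series, and thus peaked at 70% RWC, where its neighbour had only begun to rise.

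Proteins known to act on these families in Arabidopsis or rice were also followed by their descriptions. Of 3 genes matched to SnRK2 kinases, a family in which some members activate bZIP proteins of the abscisic acid response, SRK2B (Bhs1916_008) averaged 249 ± 10.5 CPM at 70% RWC, against 109 ± 12.3 CPM in hydrated leaves. Its log2 fold change was 1.19 ± 0.08 (SE, edgeR adjusted p = 3.36e-10). SAPK8 (Bhs543_008) rose later, to 383 CPM at 10% RWC, against 138 CPM in hydrated leaves and 139.9 CPM at 70% RWC. SAPK10 (Bhs2163_008) fell to 30.9 CPM at 70% RWC and 6.63 CPM at 10% RWC, against 81.7 CPM in hydrated leaves. Of 6 genes for 14-3-3 proteins, which bind phosphorylated bZIP proteins, 2 rose and 3 fell at 70% RWC and 1 rose and 4 fell at 10% RWC against hydrated leaves. Over all tested genes 34.6% rose and 35.9% fell at 70% RWC, and 42.4% rose and 41.5% fell at 10% RWC. Partner counts this small are given as descriptions.

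Both genes of the NPR1 family, whose proteins work with TGA-type bZIP factors, fell in each comparison. NPR2 (Bhs508_029) averaged 7.16 CPM at 10% RWC, against 42.7 CPM in hydrated leaves. COP1 and SPA proteins, which mark the bZIP protein HY5 for degradation, were matched by 8 genes, of which 1 rose and 4 fell at 70% RWC, and 4 rose and 2 fell at 10% RWC against hydrated leaves. Between 10% and 70% RWC 6 of them rose and none fell, among them the COP1-like gene Bhs149_007 at 103.5 CPM in 10% RWC leaves, against 52.7 CPM at 70% RWC. None of the 10 bZIP members was described as a TGA factor or as HY5. No target of the NPR1 family or of COP1 is thus named among them. Of 6 tested genes that matched the words for the corepressor TOPLESS, 3 rose and 3 fell at 70% RWC and at 10% RWC against hydrated leaves. That list includes a TPLATE-like gene, an endocytosis protein that is no corepressor and was among those that rose. The topless-related gene Bhs22_068 averaged 12.3 CPM at 10% RWC, against 226 CPM in hydrated leaves. Beside these counts 70.5% of all tested genes were called at 70% RWC (35.9% lower) and 83.9% at 10% RWC (41.5% lower) against hydrated leaves. Between 10% and 70% RWC 76.8% of all tested genes were called, 37.1% higher and 39.6% lower.

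Gene ontology terms deposited with the counts put 10 of 40 homeodomain genes and 4 of 38 NAC genes under a developmental process. Any process term was given for 20 of 38 NAC, 6 of 10 bZIP and 27 of 40 homeodomain genes. Response to osmotic stress was given for 2 NAC, 1 bZIP and 1 homeodomain gene, all named above. A hormone term was given for 7 homeodomain genes, both ATHB-7-like genes among them, and for 1 bZIP gene, the ripening-related Bhs649_042. In the authors' deposited table of comparisons with hydrated leaves all 79 tested members were listed. At 70% RWC the authors' deposited table called 29 members higher and 29 lower, and 58 of those calls were also made here in the same direction, with 5 made here alone. At 10% RWC the authors' deposited table called 26 higher and 36 lower, of which 62 were shared in the same direction, with 6 made here alone, and none was opposite in either comparison. The share of all genes called by the authors was not computed. Here 70.5% of all tested genes were called at 70% RWC and 83.9% at 10% RWC against hydrated leaves. Nothing particular to the members is therefore read from these shared calls.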

How the data were processed

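RNA from whole leaves in 3 states of hydration was sequenced as Illumina libraries, 3 per state, per the labels' protocols. The authors deposited, per the file headers, whole-number counts of reads aligned uniquely to each gene model. The aligner, the counter, the use of strand, the gene models' source and the assembly version are not given in the sources used here. Strand is not stated, so reads of a gene and of an overlapping antisense transcript cannot be told apart. Reads that align to more than 1 place are missing, which lowers near-identical copies, and all gene lengths were multiples of 3 (100%), so they are coding lengths. The authors' deposited table holds log2 fold changes and adjusted p-values of the dried states against hydrated leaves, with no tool named in its header, and was used for a side by side count only.

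All 9 libraries of the whole table entered 1 fit with a mean per state (edgeR 4.0.16 in R 4.3.3: filterByExpr, TMM scaling, robust quasi-likelihood F tests, two-sided). P-values were adjusted by Benjamini-Hochberg over all 14585 tested genes, and a gene was called at an adjusted p under 0.05. CPM use TMM-scaled library sizes, and log2 fold changes are those of the fitted model with edgeR's default prior count. SEs of log2 fold changes follow from the size of the change and its F statistic. A group with 0 reads was set to a floor of 3 reads over the group for a bound, and read ratios carry exact 95% intervals for counting error alone. The reads carry no molecular identifiers, so PCR copies count as separate reads. Deviations from the state means correlated between same-numbered libraries at 0.29, 0.10 and 0.10 for hydrated and 70% RWC leaves (numbers 1, 2 and 3), at 0.27, 0.13 and 0.08 for hydrated and 10% RWC leaves, and at 0.24, 0.07 and 0.08 for the dried states. All are over 0.1 for the first of these comparisons only, and no label says what a number stands for. The comparisons of 70% and of 10% RWC with hydrated leaves share the hydrated libraries. DESeq2 1.42.0, 2 other scalings, 2 other filters, a 2-fold rule, single libraries left out, replicates 2 and 3 alone or summed, and a replicate block were tried as alternatives. On simulated counts with 2-fold and 4-fold changes in a small part of the genes, the test was checked for recovery. Unlike these data, the simulation left most genes unchanged and had no replicate that stood apart, so it covers neither feature.

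The members and gene lists were chosen with earlier results of these data known. Genes described singly were, within each family, up to 5 with the largest called increases and decreases against hydrated leaves in each dried state and up to 3 between the dried states (groups not overlapping, at least 5 CPM in the higher group), the 3 with the highest CPM, and up to 3 of each subfamily list. Others were named after their values were seen, to complete a class, a set of copies or a pair of neighbours. The genes of the partner proteins came from word lists for each partner. No sequences of these genes were used here.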

Additional observations from a re-analysis of the deposited data

How the results depend on the processing

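The counts of called members stayed within 1.5 times of those reported under each alternative tool, scaling, filter and set of replicates, and no called member changed direction. The exception is the rule that asks for at least a 2-fold change as well. With it, 18 NAC, 2 bZIP and 14 homeodomain genes were called at 70% RWC against hydrated leaves, beside 5189 of all genes. At 10% RWC 2 bZIP genes and 8116 of all genes were called so against hydrated leaves, and 2 bZIP genes and 6355 of all genes against 70% RWC. Scaling moved the summed CPM of NAC genes by more than the spread of the libraries, to 1043 in hydrated leaves and 2053 at 10% RWC with RLE factors, and to 1040 in hydrated leaves, 1655 at 70% RWC and 2135 at 10% RWC with library totals alone. The homeodomain sum at 70% RWC was 1252 with library totals alone. The median log2 fold change of all genes at 70% RWC against hydrated leaves moved by -0.10 with library totals alone, and by less with RLE factors or in the other comparisons.

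With 1 library left out at a time, 26 to 29 NAC, 7 to 8 bZIP, 23 to 27 homeodomain and 9843 to 10495 of all genes were called at 70% RWC against hydrated leaves. The ranges were 25 to 30, 7 to 10, 32 to 34 and 12038 to 12493 at 10% RWC against hydrated leaves, and 26 to 27, 5 to 6, 27 to 31 and 10841 to 11482 at 10% against 70% RWC. The filter then let through more genes. These fits tested 34 to 35 NAC, 9 to 10 bZIP, 36 to 37 homeodomain and 14780 to 14870 of all genes, so part of each range is a changed tested set. A state left with 2 libraries shares the spread estimated over all states. Over the 79 tested members, the 3 comparisons and all of these settings, 85 of 3984 values lost a call, 43 gained 1 and 3856 kept their side of the threshold. The causes were not tested. Counts of members by state of highest mean were also taken under both other scalings, a check chosen after seeing the data.

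Libraries numbered 1 correlated with each other and negatively with the other libraries of the other states, while hydrated replicate 2 correlated best with replicate 3 of 70% RWC (0.14). With the replicate block, 28 NAC, 8 bZIP, 28 homeodomain and 10928 of all genes were called at 70% RWC against hydrated leaves, 29, 9, 33 and 12621 at 10% RWC against hydrated leaves, and 27, 6, 30 and 11728 at 10% against 70% RWC. At 70% RWC against hydrated leaves the block changed no member's call other than that of Bhs2770_003. Depth limits the weakest members, such as the 9 genes with 34 to 72 reads that were not tested.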
